A study of Homo sapiens with 4 samples.

Results

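The genes of cyclin-dependent kinase (CDK) inhibitors were followed in A549 cells after knockdown of the long noncoding RNA USP2-AS1. The 8 genes were taken by symbol: CDKN1A, CDKN1B, CDKN1C, CDKN2A, CDKN2B, CDKN2C, CDKN2D and CDKN3. Of these 8, the deposited table of 6828 genes lists 3, CDKN1A, CDKN2C and CDKN3. CDKN1A RNA rose 2.87-fold after the knockdown and CDKN3 RNA fell 2.74-fold, while CDKN2C stood at 0.693 times its control level. The table holds only genes with an adjusted p below 0.05 in the authors' own comparison, so each listed gene had already passed a test on these libraries.

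A549 is a human lung adenocarcinoma cell line of epithelial origin. The cells were infected with PLKO.1 lentivirus that expressed either a control short hairpin RNA (shctrl) or one against USP2-AS1 (shUSP2-AS1), and poly-A RNA was sequenced 72 h after infection, with 2 biological replicates per group. Both groups share the line, the vector, the viral infection and the puromycin selection that the methods give for infected cells. Which of the study's USP2-AS1 hairpins was used is not given in the sources used here. The libraries hold no other hairpin against USP2-AS1, so an effect of the hairpin itself and one of the loss of USP2-AS1 cannot be told apart. Outside these libraries, the paper used an additional hairpin in assays of senescence, growth, colony number and E2F1 RNA and protein. It reports lower E2F1 after knockdown there. In senescence assays it also restored USP2-AS1 expression.

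CDK inhibitors hold the cell cycle back by binding CDKs or their complexes with cyclins. Proteins of the Cip/Kip family (p21 from CDKN1A, p27 from CDKN1B, p57 from CDKN1C) bind cyclin-CDK complexes broadly, whereas INK4 proteins (p16 from CDKN2A, p15 from CDKN2B, p18 from CDKN2C, p19 from CDKN2D) bind CDK4 and CDK6 alone and keep D-type cyclins off them. CDKN3 belongs to neither family: it encodes a phosphatase that removes an activating phosphate from CDKs, and its RNA is known to be made mainly by dividing cells. A549 cells are known to have lost CDKN2A.

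The control regions of the genes that rose and fell are shown because the members differ in which known motifs lie there. The sequences are from RefSeq on GRCh38.p14, which gave start sites for 7 of the 8 members and none for CDKN1C, and all windows used were identical to hg38. The sequences cover the 250 bases before the start, 5′ to 3′ on the plus strand, with motifs of either strand in capitals. In CDKN1A these are Sp1 boxes, searched as GGGCGG. In CDKN3 they are CCAAT boxes and the cell cycle genes homology region or CHR, which was searched as TTTGAA. The CDKN1A window lies at chr6:36678464-36678713 and that of CDKN3 at chr14:54396757-54397006. As counted, the genes begin before these RefSeq starts, at 36676460 for CDKN1A and 54396849 for CDKN3. The CDKN1A window thus lies inside its gene, and the CDKN3 window overlaps its own. GENCODE gives 8 transcripts for CDKN1A and 10 for CDKN3, and only the RefSeq start was used for each.
CDKN1A promoter: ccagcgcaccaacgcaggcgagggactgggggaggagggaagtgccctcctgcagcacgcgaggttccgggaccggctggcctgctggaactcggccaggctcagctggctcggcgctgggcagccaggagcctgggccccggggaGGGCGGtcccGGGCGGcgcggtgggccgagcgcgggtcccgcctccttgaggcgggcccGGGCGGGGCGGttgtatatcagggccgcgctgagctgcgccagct
CDKN3 promoter: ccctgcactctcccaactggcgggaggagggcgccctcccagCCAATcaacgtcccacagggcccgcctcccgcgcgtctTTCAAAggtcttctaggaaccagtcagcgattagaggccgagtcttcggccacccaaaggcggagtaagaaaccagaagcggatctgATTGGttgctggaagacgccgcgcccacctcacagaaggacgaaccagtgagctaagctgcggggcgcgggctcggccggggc

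The CDKN1A window held 4 Sp1 boxes, which began 104, 94, 45 and 40 bases before the start and the last pair of which overlap by 1 base. It held no CCAAT box and no CHR. The CDKN3 window held 1 CHR on the opposite strand, 170 bases before the start, and 2 CCAAT boxes, 208 bases before the start on the same strand and 83 bases before it on the opposite strand, and no Sp1 box. CDKN2C has 3 start sites in RefSeq, and their windows held 0, 5 and 1 Sp1 boxes, a CCAAT box only in the third, and no CHR. None of these windows held one of the E2F motifs searched (TTTCCCGC, TTTGGCGC, TTTCGCGC or TTTGCCGC, both strands). Of all 35116 RefSeq windows, 42.6% held an Sp1 box, 32.0% a CCAAT box, 13.3% a CHR and 2.79% an E2F motif, so the first 3 kinds are common. These matches describe letters in a window and no binding was measured here.

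The 4 libraries held between 10772788 and 14120472 reads on listed genes. USP2-AS1, the targeted RNA, had normalized counts of 23.2 and 24.2 in shctrl and 2.10 and 6.16 in shUSP2-AS1, which came from 24, 22, 2 and 7 reads. It was lower in both knockdown libraries, with a log2 fold change of -2.39 (SE 0.56, limma adjusted p = 0.000597). A normalized count here is the number of reads on a gene divided by the size factor of its library. Throughout, a call needed both a limma adjusted p below 0.05 over the 6812 genes tested and a log2 fold change of 1 or more in either direction. The adjusted p is too small in a table that lists only genes already found to differ. Hence 6811 genes (100%) passed on the adjusted p alone, the groups did not overlap for 6811 (100%), and the fold change set the call.

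CDKN1A encodes p21, the Cip/Kip inhibitor of CDK2 and CDK1 complexes. Its gene (ENSG00000124762) lies at chr6:36676460-36687337 on the plus strand of hg38. Normalized counts of CDKN1A were 7436 and 6989 in shctrl, against 20618 and 20765 in shUSP2-AS1. Both knockdown libraries stood far above both controls, and the 2 knockdown values lay closer together than the controls did. The mean rose from 7213 ± 316 to 20692 ± 104 (SD, n = 2 each), a log2 fold change of 1.52 (SE 0.05, limma adjusted p = 2.5e-14).

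These values rest on deep coverage, with 7696, 6360, 19607 and 23585 CDKN1A reads in the 4 libraries. CDKN1A took 0.0624% and 0.0590% of the reads on listed genes in shctrl and 0.167% in each shUSP2-AS1 library. Gene lengths were those that the authors deposited, 2996 bases for CDKN1A, and not the genomic span given above. Ranked by normalized count per kilobase of this length among the 6828 listed genes, CDKN1A moved from places 141 and 146 in the controls to places 53 and 54 after knockdown. CDKN1A was thus an abundant RNA before knockdown too. In bulk RNA, more RNA per cell and a larger share of cells with this RNA cannot be told apart. Of the genes tested, 527 (7.74%) had a log2 fold change at least as high.

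CDKN3 (ENSG00000100526) lies at chr14:54396849-54420218 on the plus strand. Its normalized counts were 639 and 652 in shctrl and 217 and 254 in shUSP2-AS1. The groups were well apart, with the knockdown libraries less alike than the controls. The mean fell from 645 ± 9.18 to 235 ± 26.1 (SD, n = 2 each), a log2 fold change of -1.46 (SE 0.10, limma adjusted p = 4.89e-10). Reads on CDKN3 numbered 661, 593, 206 and 288. Its place by count per kilobase went from 1552 and 1505 in the controls to 3452 and 3107 after knockdown, and 475 of the genes tested (6.97%) had a log2 fold change at least as low.

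CDKN2C encodes p18, the INK4 inhibitor of CDK4 and CDK6, and is the only INK4 gene listed. The gene (ENSG00000123080) lies at chr1:50960745-50974634 on the plus strand. Normalized counts of CDKN2C were 357 and 353 in shctrl and 254 and 237 in shUSP2-AS1. The groups did not overlap, but the distance was modest, with means of 355 ± 2.68 and 246 ± 12.5 (SD, n = 2 each). The log2 fold change was -0.53 (SE 0.11, limma adjusted p = 0.000163), under the fold threshold, so CDKN2C was not called. Of the genes tested, 2226 (32.7%) had a log2 fold change at least as low.

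**Figure D1:**
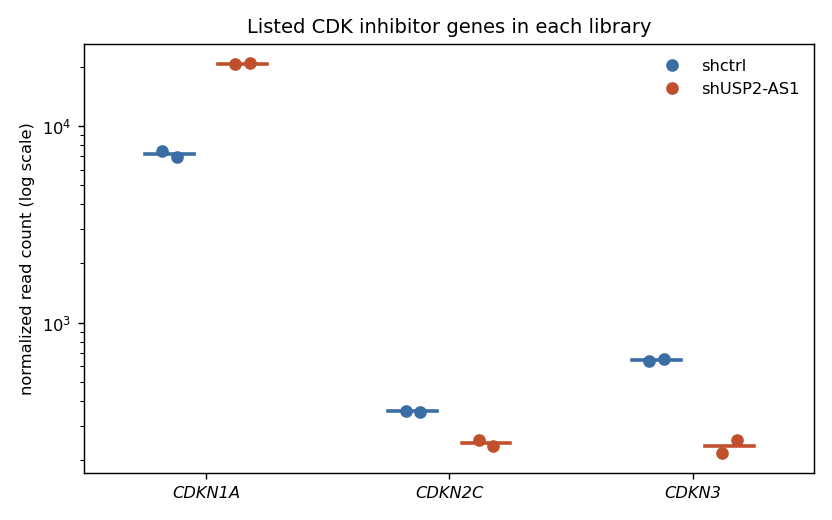
Normalized read count (log axis) of the 3 listed CDK inhibitor genes, with 1 point per library and a line at the mean of each group, shctrl in blue and shUSP2-AS1 in red. CDKN1A stands at 7436 and 6989 in the controls and at 20618 and 20765 after knockdown, whereas the knockdown libraries lie below the controls for CDKN3 and CDKN2C.

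Thus 1 of the 3 listed members was called higher and 1 lower, where 29.7% of all genes tested were called, 16.1% higher and 13.5% lower. The balance of the directions depended on the scaling of the libraries. Here 1098 genes were called higher and 922 lower, but 934 higher and 1143 lower with RLE scaling. The RLE factors were computed from the listed genes alone, which were kept because they differed, and not from all genes. With 3 genes, these counts say nothing about the family as a whole. The median log2 fold change of the 3 was -0.53, set by CDKN2C, beside 0.19 over all genes tested. CDKN1A and CDKN3 lay in opposite arms of that distribution and CDKN2C in the bulk of its lower arm.

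**Figure D2:**
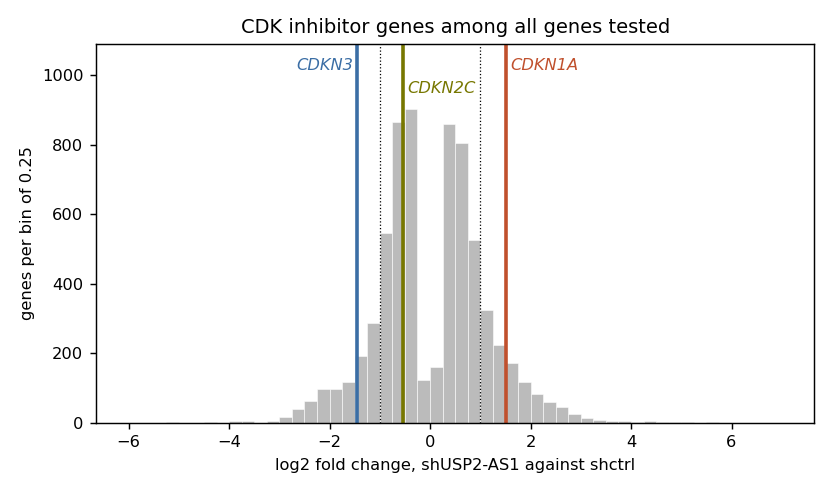
Histogram of the log2 fold change (x axis) of the 6812 genes tested, in genes per bin of 0.25 (y axis), with vertical lines at the 3 listed CDK inhibitor genes and dotted lines at the fold threshold of 1 in either direction. CDKN1A at 1.52 and CDKN3 at -1.46 lie outside the dotted lines and CDKN2C at -0.53 between them, and few genes lie near 0 because the table lists only genes that differed.

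The other 5 members, CDKN1B, CDKN1C, CDKN2A, CDKN2B and CDKN2D, are not among the listed genes. They comprise the Cip/Kip genes of p27 and p57 and the INK4 genes of p16, p15 and p19. No level can be given for them, and their absence from the list does not show that they were equal between the groups or that they were silent. CDKN2A is known to be lost in A549 cells. For the others, a gene that was not expressed, one that did not differ and one that missed the threshold cannot be told apart here.

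Per kilobase of gene length, the order of the 3 listed members was the same in both groups. The deposited lengths were 2996 bases for CDKN1A, 1836 for CDKN3 and 3018 for CDKN2C. In shctrl, CDKN1A stood at 2408 ± 105 normalized counts per kilobase, CDKN3 at 351 ± 5.00 and CDKN2C at 118 ± 0.887 (SD, n = 2 each). In shUSP2-AS1 the levels were 6906 ± 34.6, 128 ± 14.2 and 81.4 ± 4.14 counts per kilobase. Members next to each other in this order did not overlap within a group, and CDKN3 and CDKN2C were closer to each other after knockdown than before.

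A ratio of 2 genes within a library does not depend on how the libraries are scaled. The log2 ratio of the CDKN1A count to the CDKN3 count was 3.54 and 3.42 in shctrl and 6.57 and 6.35 in shUSP2-AS1. That of CDKN1A to CDKN2C was 4.38 and 4.30 in shctrl and 6.33 and 6.45 in shUSP2-AS1. Both ratios were higher in both knockdown libraries, by 2.98 and 2.05 on the log2 scale. An exact two-sided permutation test gave p = 0.333 for each, the smallest p that 2 libraries against 2 allow.

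The ratio of CDKN1A to the kinases that its product binds was computed after the values had been seen, as a description. CDKN1A counts per kilobase divided by the summed counts per kilobase of CDK1, CDK2, CDK4 and CDK6 came to 1.76 and 1.74 in shctrl and 12.0 and 11.9 in shUSP2-AS1. Over CDK2 alone this ratio was 13.9 and 13.2 in shctrl and 154 and 165 in shUSP2-AS1. Over CDK4 and CDK6 it was 2.79 and 2.81 against 14.7 and 14.8. These are ratios of RNA, and proteins were not measured here.

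**Figure D3:**
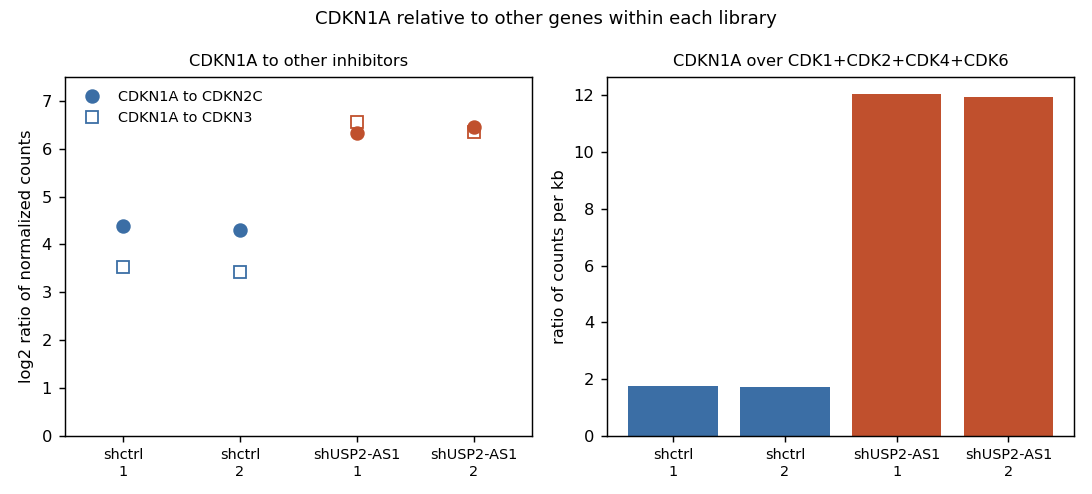
CDKN1A relative to other genes in each of the 4 libraries: on the left the log2 ratio of its normalized count to those of CDKN2C (filled circles) and CDKN3 (open squares), on the right its count per kilobase over the summed counts per kilobase of CDK1, CDK2, CDK4 and CDK6. The left ratios lie between 3.42 and 4.38 in shctrl and between 6.33 and 6.57 in shUSP2-AS1, and the right ratio goes from 1.76 and 1.74 to 12.0 and 11.9.

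Among the cyclins and CDKs that the inhibitors bind, 11 of 16 genes were listed, and 7 were called lower and none higher, beside 13.5% and 16.1% of all genes tested. Their median log2 fold change was -1.50 (range -2.42 to -0.19), against 0.19 over all genes tested. CCNA2, the cyclin of S phase and mitosis, had normalized counts of 1120 and 1209 in shctrl and 195 and 240 in shUSP2-AS1 (log2 fold change -2.42, SE 0.10). CDK1, the mitotic kinase, had counts of 1332 and 1326 against 227 and 277 (log2 fold change -2.40, SE 0.09). CCNB1, the cyclin that partners CDK1, had 3401 and 3178 against 637 and 748 (log2 fold change -2.25, SE 0.07).

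CDK2, the main target of p21 at the start of S phase, had counts of 694 and 688 in shctrl and 174 and 163 in shUSP2-AS1 (log2 fold change -2.03, SE 0.10). Its E-type cyclins were also called lower, with log2 fold changes of -1.24 (SE 0.10) for CCNE1 and -1.50 (SE 0.27) for CCNE2, the latter from mean counts of only 78.5 and 27.3. The partners of the INK4 inhibitors had smaller log2 fold changes. CDK4 had a log2 fold change of -0.97 (SE 0.06), CDK6 of -0.59 (SE 0.06), CCND1 of -0.63 (SE 0.05) and CCND3 of -0.19 (SE 0.05), and none of these 4 was called. CDK4 lay so near the threshold that it was called without replicate 2 of shctrl, at -1.04, and with RLE scaling or DESeq2's own size factors, at -1.09 with each.

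The pocket proteins and the E2F and DP factors, through which CDK activity reaches the genes of S phase, had 6 of 13 genes listed. Of these 6, 5 were called lower and none higher, beside 13.5% and 16.1% of all genes tested, with a median log2 fold change of -1.34 (range -2.30 to -0.74). E2F1, an activator of S phase genes, had counts of 1280 and 1241 in shctrl and 276 and 304 in shUSP2-AS1 (log2 fold change -2.12, SE 0.08). E2F8 and E2F7, which are repressors, had log2 fold changes of -2.30 (SE 0.19) and -1.39 (SE 0.12). E2F4, a repressor that acts with pocket proteins, was the listed gene not called, at -0.74, and was named after its value was seen. RBL1, which encodes the pocket protein p107, had 617 and 674 against 254 and 273 (log2 fold change -1.29, SE 0.10). RB1 is not among the listed genes.

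Transcription factors known to act on CDKN1A moved in both directions. Of 24 such genes 18 were listed, and 4 were called higher and 1 lower, with a median log2 fold change of 0.36 (range -1.97 to 1.60). Beside the 16.1% called higher and 13.5% called lower among all genes tested, counts this small do not set the factors apart. MYC, which represses CDKN1A, had counts of 2965 and 2928 in shctrl and 2104 and 2168 in shUSP2-AS1 (log2 fold change -0.46, SE 0.05), and was not called.

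The factors called higher included TP63, with counts of 46.4 and 33.0 in shctrl and 111 and 127 in shUSP2-AS1 (log2 fold change 1.58, SE 0.22). KLF4, a zinc finger activator of CDKN1A, had 343 and 331 against 882 and 863 (log2 fold change 1.37, SE 0.08). HIC1, a transcriptional repressor, had 31.9 and 20.9 against 76.8 and 84.5 (log2 fold change 1.60, SE 0.27). The fourth, KLF6, named after its value was seen, had a log2 fold change of 1.01 (SE 0.06). Its call was lost with RLE scaling and with DESeq2's own size factors, at 0.89 with each, with TMM scaling, at 0.996, without replicate 1 of shctrl, at 0.95, and without replicate 2 of shUSP2-AS1, at 0.99. BRCA1 was the gene called lower, with 1343 in both controls against 369 and 317 (log2 fold change -1.97, SE 0.08).

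Factors that act on the degradation of p21, p27 and p57, in either direction, had 18 of 21 genes listed. Of these 18, 5 were called lower and none higher, beside 13.5% and 16.1% of all genes tested, and the median log2 fold change was -0.42 (range -2.86 to 0.34). CDC20, the mitotic activator of the anaphase-promoting complex, had counts of 2717 and 2711 in shctrl and 348 and 397 in shUSP2-AS1 (log2 fold change -2.86, SE 0.07). DTL, the substrate receptor that directs p21 to the CUL4 ligase on chromatin, had 902 and 956 against 129 and 145 (log2 fold change -2.75, SE 0.10). CKS1B, the cofactor with which SKP2 recognises p27, had 1925 and 1707 against 393 and 455 (log2 fold change -2.10, SE 0.08).

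UBE2L6, a conjugating enzyme of the ubiquitin-like protein ISG15, had a log2 fold change of -1.47 (SE 0.12). PCNA, the sliding clamp to which p21 binds, had 5801 and 5556 against 2732 and 2895 (log2 fold change -1.01, SE 0.05). The PCNA call was lost without replicate 1 of either group, at -0.98 without that of shctrl and -0.97 without that of shUSP2-AS1, and with upper quartile scaling, at -0.95. The remaining 13 listed genes, among them the cullins and other core ligase subunits, lay under the fold threshold. SKP2 is not among the listed genes.

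Kinases and carriers that act on the inhibitors had 13 of 18 genes listed, with 3 called lower, none higher and a median log2 fold change of -0.52 (range -1.57 to 0.56). With 13.5% of all genes tested called lower and 16.1% higher, counts this small do not set them apart. UHMK1, a kinase of p27, had counts of 2226 and 2412 in shctrl and 812 and 745 in shUSP2-AS1 (log2 fold change -1.57, SE 0.07). SET, a p21-binding protein, and KPNA2, a nuclear import carrier, each had a log2 fold change of -1.43 (SE 0.05 for both). XPO1, a nuclear export carrier, had -0.99 (SE 0.05) and was called with RLE scaling, at -1.10. YWHAQ, a 14-3-3 protein with a log2 fold change of 0.11, was at -0.01 with RLE scaling. XPO1 and YWHAQ were named after their values were seen.

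Proteins that bind the inhibitors or regulate CDKs had 17 of 22 genes listed, with 5 called lower and none higher, beside 13.5% and 16.1% of all genes tested, and a median log2 fold change of -0.58 (range -2.69 to 0.69). PKMYT1, an inhibitory kinase of CDK1, had counts of 1280 and 1223 in shctrl and 189 and 196 in shUSP2-AS1 (log2 fold change -2.69, SE 0.09). The activating phosphatases CDC25C and CDC25A had log2 fold changes of -2.68 (SE 0.22) and -1.51 (SE 0.14). CKS2, a small subunit of CDK complexes, had 1364 and 1255 against 366 and 413 (log2 fold change -1.75, SE 0.08). Activators and inhibitors of CDKs were thus both among the genes called lower.

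Polycomb proteins, DNA methylation factors and other regulators known to act on the INK4 and CDKN1C loci had 14 of 23 genes listed, with 6 called lower and none higher, beside 13.5% and 16.1% of all genes tested, and a median log2 fold change of -0.60 (range -2.08 to 0.97). UHRF1, a reader that guides maintenance DNA methylation, had counts of 2213 and 2386 in shctrl and 511 and 576 in shUSP2-AS1 (log2 fold change -2.08, SE 0.07). EZH2, the Polycomb methyltransferase of histone H3, had 845 and 813 against 218 and 221 (log2 fold change -1.91, SE 0.09). Its partner SUZ12 and the maintenance methyltransferase DNMT1 had log2 fold changes of -1.24 (SE 0.07) and -1.30 (SE 0.06). EED, a Polycomb partner of EZH2 at -1.07, was not called without replicate 1 of shUSP2-AS1, at -0.86. KDM6B, a demethylase that opposes EZH2, had 0.97 (SE 0.07) and was called higher without replicate 2 of shctrl, at 1.05, or without replicate 2 of shUSP2-AS1, at 1.01. ETS1, an activator of CDKN2A and no silencer, was also among the 6 called lower, at -1.02 (SE 0.08), and not called with upper quartile scaling, at -0.96. EED, KDM6B and ETS1 were named after their values were seen. CDKN2A, CDKN2B and CDKN1C, on which these factors are known to act, are not listed, and CDKN2A is known to be lost in A549 cells.

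**Figure D4:**
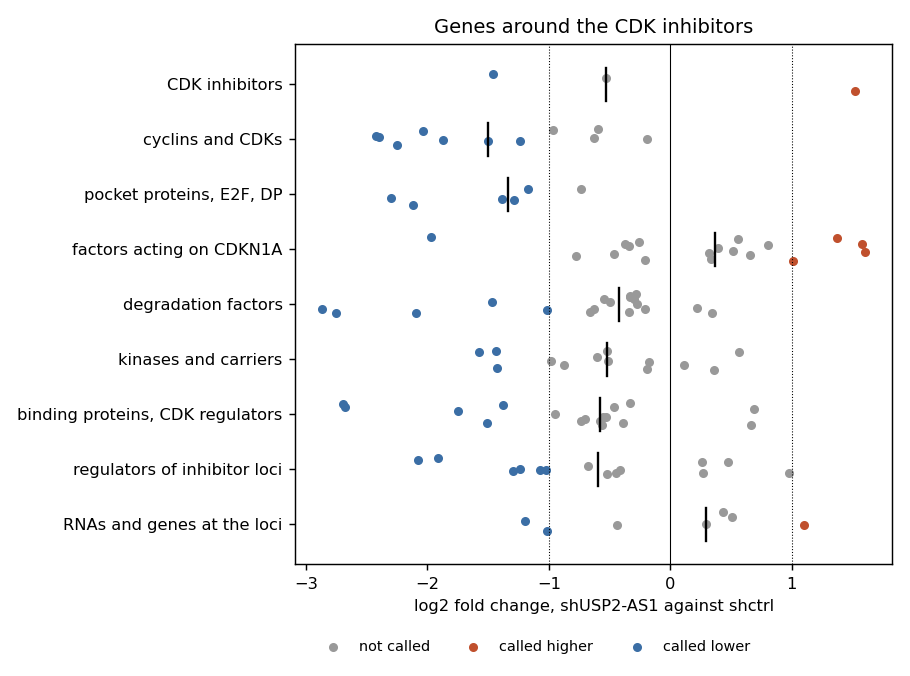
Log2 fold change (x axis) of the listed genes in each group of genes around the CDK inhibitors (rows), with 1 point per gene in blue where called lower, red where called higher and grey otherwise, a black bar at the median and dotted lines at the fold threshold of 1. The cyclins and CDKs have a median of -1.50 with all 11 points below 0.

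Over these groups and that of the genes at the inhibitor loci, 8 in all with 166 distinct genes, 104 were tested, and 34 were called lower and 5 higher, beside 13.5% and 16.1% of all genes tested. All of them were listed because they differed in these libraries, so the groups of genes are described and not tested. Apart from CDKN3, no listed inhibitor gene lay with the cyclins and CDKs among the genes called lower.

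RNAs and genes around the inhibitor loci gave no common direction. Of 29 such genes 7 were listed, with 2 called lower and 1 higher and a median log2 fold change of 0.29 (range -1.20 to 1.10). With 29.7% of all genes tested called, this count does not set them apart. KRI1, next to CDKN2D, had a log2 fold change of -1.20 (SE 0.10), and SLC22A18, near CDKN1C, one of 1.10 (SE 0.18) that was 0.84 without replicate 2 of shctrl and 0.98 with RLE scaling, and then not called. Within 200 kb of CDKN1A, 3 genes were listed. SRSF3, a splicing factor gene 70.9 kb away, had counts of 4695 and 4326 in shctrl and 2215 and 2231 in shUSP2-AS1 (log2 fold change -1.02, SE 0.05) and was not called without replicate 1 of shctrl or with upper quartile scaling, at -0.96 in each case.

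The other listed neighbours of CDKN1A were C6orf89, with a log2 fold change of 0.55 (SE 0.06), and PPIL1, with one of -0.51 (SE 0.08). FAF1, which lies 0.478 kb from CDKN2C on the other strand, had -0.44 (SE 0.08), close to the value of CDKN2C. The neighbours of CDKN3 had log2 fold changes of the opposite sign, 0.29 (SE 0.06) for CNIH1 at 3.34 kb and 0.50 (SE 0.06) for GMFB at 54.3 kb. None of these 5 genes was called.

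On the opposite strand, GENCODE annotates the noncoding gene DINOL over 146 exon bases of CDKN1A and ENSG00000290102 over 617 exon bases of CDKN2C, and neither is listed. Whether the counting used strand is not given in the sources used here, so reads of these pairs cannot be told apart over those bases. No other gene overlaps CDKN3.

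The genes whose pattern over the 4 libraries was most like that of CDKN1A were sought among 6044 genes with a mean of at least 100, by the distance between log2 values centred on each gene's mean. They were PANX2 (distance 0.0269), SERINC2 (0.0324), ABHD4 (0.0412), NEXN (0.0544) and CD59 (0.0664). PANX2, a channel protein gene, had counts of 274 and 258 in shctrl and 780 and 770 in shUSP2-AS1. For CDKN3 the nearest were HAUS8 (0.0444), JMJD8 (0.0450), FANCE (0.0475), ANP32B (0.0517) and HIRIP3 (0.0660). HAUS8, a subunit of the spindle complex augmin, had 194 and 203 in shctrl and 68.4 and 78.4 in shUSP2-AS1. With 4 libraries in 2 groups, such likeness reflects little more than an equal fold change.

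Marker genes of the labelled cell type and of other cell types were looked up among the listed genes. Of 13 markers of lung epithelium and A549, 7 were listed, 3 of them lower and 4 higher (log2 fold change -1.05 to 0.75). Their summed normalized counts, 366151 to 383474 in shctrl and 359705 to 367658 in shUSP2-AS1, thus hide changes in both directions. The median log2 fold change of 0.11 was that of NQO1, which was at -0.0050 with RLE scaling. Only KRT18 was called, lower at -1.05 (SE 0.05), but not with upper quartile scaling, at -0.99. Of 7 fibroblast markers, 3 (THY1, COL1A1 and LUM) were listed and all 3 were called higher, beside 16.1% of all genes tested. These 3 were listed because they differed, and no level can be given for the other fibroblast markers. Their summed counts were 439 to 482 in shctrl and 1017 to 1165 in shUSP2-AS1, with none at 0 in any library. LUM had only 2 and 1 reads in shctrl, against 24 and 18 in shUSP2-AS1. THY1 (chr11:119415476-119424985) lies within the span of the targeted gene USP2-AS1 (chr11:119364359-119526664), on the other strand. COL1A1, at 1.05, was not called with RLE scaling, at 0.93, without replicate 1 of shctrl, at 0.96, or without replicate 2 of shUSP2-AS1, at 0.94. The part of the fibroblast markers in the results for the inhibitor genes was not tested. None of 6 leukocyte and 4 endothelial markers was listed. A marker that was equal in both groups is missing from the list just as a silent one is. The absence of a marker therefore does not speak to the cell type.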

How the data were processed

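The authors infected A549 cells, sequenced poly-A RNA and compared the groups with DESeq2. Per the labels, the processing used HISAT2 (2.0.5), featureCounts (1.5.0-p3), DESeq2 (1.20.0) and hg38. For each gene the authors deposited a normalized signal in each library (reads over that library's size factor), beside their own fold changes and p-values, which were not used except that every listed adjusted p is under 0.05. Library columns carry short names, read as shctrl (scr) and shUSP2-AS1 (sh216) from the comparison named in the table's title and their replicate number. All values were whole reads within 0.001 once divided by the value of 1 read, 0.880 to 1.10 by library.

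Values were taken as log2(value + 1) and fitted in limma (3.58.1, R 4.3.3) with a trend, over the 6812 genes whose mean reached 10 (16 genes did not). P-values were adjusted by the Benjamini-Hochberg method over all of them. Fold changes are on the log2(value + 1) scale. Genes named were the members, up to 4 called genes of each list with the largest changes, a fixed set of cell cycle genes, 5 nearest genes for CDKN1A and CDKN3, and listed genes within 200 kb of a member. Others (E2F4, KLF6, YWHAQ, XPO1, EED, KDM6B, ETS1, NPM1, NQO1) were named after their values were seen. A gene of the fixed set and the results that need it, a list of genes among them, are not reported here. The members and lists were chosen with earlier results of these data known. Alternatives used edgeR (4.0.16) and DESeq2 (1.42.0) on the recovered reads. The limma, edgeR and DESeq2 fits were run on simulated counts in which a small part of the genes had known changes and the rest were equal. Nearly all listed genes differed, so that check does not cover p-values or scaling in such a selected set. Chi-square per degree of freedom between replicates was 3.72 for shctrl and 3.83 for shUSP2-AS1, so no library was a repeat of another.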

Additional observations from a re-analysis of the deposited data

How the results depend on the processing

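CDKN1A, CDKN3 and CDKN2C kept their direction and their call under all alternatives run, except that CDKN2C, at -0.53, passed when no fold threshold was set. CDKN1A ranged from 1.40 (RLE scaling) to 1.58 (upper quartile scaling) on the log2 scale, and RLE scaling moved the median of all genes by -0.118. Leaving out each replicate in turn gave 1.48 to 1.57 for CDKN1A, -1.57 to -1.34 for CDKN3 and -0.58 to -0.48 for CDKN2C. On the recovered reads, edgeR gave adjusted p-values of 5.56e-17, 7.77e-12 and 8.58e-05 for CDKN1A, CDKN3 and CDKN2C. Tested against a fold change of 2, limma's adjusted p was 1.11e-07 for CDKN1A and 0.00165 for CDKN3.

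The replicate differences of the 2 groups had a correlation of -0.0397 across genes, which does not show whether the replicates were made in pairs. With the replicate block the 3 members kept their calls and 922 genes were called lower and 1098 higher, as without it. Scaling changed the balance of directions, with 1143 lower and 934 higher by RLE, 1146 and 952 by DESeq2's own size factors and 830 and 1204 by the upper quartile. These factors, and those of TMM, were computed from the listed genes alone, which were kept because they differed. With the authors' size factors, DESeq2 called 925 lower and 1112 higher. Tested against a fold change of 2, 1064 genes were called (523 lower, 541 higher), and without a fold threshold 6811 (3362 lower, 3449 higher). Without that threshold all 130 genes tested in the lists around the inhibitors passed, with the list not reported here included. The direction turned for NQO1, to -0.0050 with RLE scaling and -0.0050 with DESeq2's own size factors, and for YWHAQ, to -0.0075 and -0.0074. Apart from changes of the fold rule, 126 of 141 genes kept direction and call over 14 alternatives. These 141 include the cell type markers, the fixed set and the list not reported here. Another 13 changed call, all with a log2 fold change near the threshold. Among them, XPO1 was called without replicate 1 of shctrl (-1.01) and NPM1 without replicate 2 of shUSP2-AS1 (-1.01). Calls rest on 2 libraries per group, and the table, limited to genes that differed, sets what can be seen.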
